A study of Mus musculus with 12 samples.

Results

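The Irx and Dlx homeobox genes described here are 8 rows, Irx1, Irx2, Irx3, Irx4, Irx5, Irx6, Dlx1 and Dlx2, chosen by name from the 38720 genes listed in each of 2 expression tables. All 8 had reads in every library and passed the filter for testing. RNA was sequenced from retinas of P0 C57/BL6 mice, in retinal ganglion cells (RGCs) separated with magnetic beads carrying an antibody to CD90, the protein made from Thy1, and in the cells that the beads left behind (non-RGCs). Each fraction came from Ezh2 knockout mice (Math5-Cre; Ezh2 f/f, here mKO), in which Cre removes the part of Ezh2 that holds the catalytic SET domain, and from wild type (WT) mice, with 3 libraries from separate RNA extractions in each of the 4 groups. Math5-Cre acts in precursors of the RGC lineage and not in all RGCs, so the mKO fractions mix cells with and without the deletion, and the sources used here do not give whether a library pooled several pups. The p-values below therefore measure the spread between these libraries. The deposited values are means over the 3 libraries of a group, and the reads of each library were recovered from them; within a group, library A is the deepest, B the next and C the shallowest.

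Iroquois (Irx) genes encode homeodomain transcription factors of the TALE class and lie in 2 genomic clusters of 3. In the developing retina they are known from the ganglion cell layer and, for Irx5 and Irx6, from bipolar cells. Dlx1 and Dlx2, a linked pair related to Drosophila Distal-less, are expressed by early RGCs, amacrine cells and horizontal cells, and are needed for RGC differentiation and survival. EZH2 is the enzyme of Polycomb repressive complex 2 that methylates lysine 27 of histone H3, a repressive mark that many homeobox genes carry where they are silent.

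The recognition helix of the homeodomain, which contacts DNA, shows how closely the 8 genes are related and what sets the Irx from the Dlx genes. Each line gives 54 bases of the coding strand read from GENCODE M21 transcripts on GRCm38, with the 6 codons of the helix core in capitals.
Irx1: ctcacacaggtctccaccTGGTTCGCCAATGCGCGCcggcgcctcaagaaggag
Irx2: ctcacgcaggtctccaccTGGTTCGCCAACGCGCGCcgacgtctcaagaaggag
Irx3: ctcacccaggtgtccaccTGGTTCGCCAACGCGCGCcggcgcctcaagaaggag
Irx4: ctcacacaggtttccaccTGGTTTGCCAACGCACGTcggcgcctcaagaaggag
Irx5: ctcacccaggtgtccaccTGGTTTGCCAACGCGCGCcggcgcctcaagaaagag
Irx6: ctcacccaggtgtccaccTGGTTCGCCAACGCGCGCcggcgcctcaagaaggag
Dlx1: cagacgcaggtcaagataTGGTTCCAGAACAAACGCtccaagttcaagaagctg
Dlx2: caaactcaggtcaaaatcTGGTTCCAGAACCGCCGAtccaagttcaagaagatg
Between the 6 Irx genes, 47 to 54 of these 54 bases were identical, and Irx3 and Irx6 were identical at all 54. Irx and Dlx genes shared 28 to 32 of the 54 bases, and Dlx1 and Dlx2 shared 45. Over the whole homeobox, the 15 Irx pairs had 83.1% to 91% of 189 bases in common and the Dlx pair 73.9% of 180 bases, so no pair was near-identical over this stretch.

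The genes form 3 groups by position. Irx1 (ENSMUSG00000060969, chr13:71957921-71963723, minus strand), Irx2 (ENSMUSG00000001504, chr13:72628820-72634198, plus strand) and Irx4 (ENSMUSG00000021604, chr13:73260479-73269608, plus strand) lie on chromosome 13, separated by 665 and 626 kb. Irx3 (ENSMUSG00000031734, chr8:91798525-91802067, minus strand), Irx5 (ENSMUSG00000031737, chr8:92357625-92376286, plus strand) and Irx6 (ENSMUSG00000031738, chr8:92674288-92680956, plus strand) lie on chromosome 8, separated by 556 and 298 kb. Dlx1 (ENSMUSG00000041911, chr2:71528113-71533981, plus strand) and Dlx2 (ENSMUSG00000023391, chr2:71543408-71546754, minus strand) face each other on chromosome 2 with 9.43 kb between them. Coordinates are from GENCODE M21 (GRCm38, to which mm10 corresponds).

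The promoters of Irx2 and Irx4 are printed because the effect of mKO on these 2 genes differed between the fractions. The 250 bases before the RefSeq start site (GRCm38.p6, plus strand, chr13:72628570-72628819 for Irx2 and chr13:73260247-73260496 for Irx4) are given with each CG dinucleotide in capitals.
Irx2 upstream: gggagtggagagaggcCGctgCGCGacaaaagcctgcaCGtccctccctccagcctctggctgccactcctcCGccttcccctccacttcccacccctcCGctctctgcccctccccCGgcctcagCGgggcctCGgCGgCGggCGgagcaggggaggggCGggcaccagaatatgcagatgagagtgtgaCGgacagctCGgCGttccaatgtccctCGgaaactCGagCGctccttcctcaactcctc
Irx4 upstream: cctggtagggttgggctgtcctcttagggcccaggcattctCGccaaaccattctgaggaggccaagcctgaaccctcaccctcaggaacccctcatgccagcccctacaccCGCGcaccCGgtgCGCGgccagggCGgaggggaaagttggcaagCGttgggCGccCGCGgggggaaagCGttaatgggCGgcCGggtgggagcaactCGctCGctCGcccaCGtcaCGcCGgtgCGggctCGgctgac
Irx2 had 19 CG dinucleotides in this window and Irx4 had 22, against a median of 6 over 27025 promoters. At least as many were found in 19.6% of all promoters for Irx2 and in 14.6% for Irx4. Promoters were matched for 5 of the 8 genes, and the other 3 of these 5 had 13 (Irx3), 22 (Dlx1) and 24 (Dlx2). The count is a description of these letters and says nothing of marks or factors in these cells.

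Depth and purity set the precision of every value below. The libraries held 7139633 to 13014004 reads on genes, fewest in library C of the mKO non-RGCs. A list of 12 RGC markers summed to 2692 to 2880.3 reads per 1000000 reads on genes (RPM) in WT RGC libraries and 516 to 543 in WT non-RGC libraries, while 10 progenitor markers still summed to 1196 to 2005 in WT RGC libraries, against 2520 to 2969.7 in WT non-RGC libraries. Library C of the WT group stood apart in both fractions. Its progenitor markers were at 2005 against 1196 and 1249 in RGCs, and at 2969.7 against 2533 and 2520 in non-RGCs. Letters rank depth within a group, so library C of RGCs and library C of non-RGCs are not known to share a source. In WT RGCs, library C was also highest for photoreceptor, amacrine and horizontal, bipolar, and astrocyte and Mueller markers. The values of the RGC and progenitor lists are given again beside the genes that move with them. Of the other lists, kidney markers were lower in mKO (1.61 to 2.41 against 6.73 to 9.62 in RGCs, 2.65 to 5.05 against 7.39 to 11.8 in non-RGCs), as were photoreceptor markers (531 to 582 against 596 to 853 in RGCs, 961 to 1092 against 1189.7 to 1333 in non-RGCs). Amacrine and horizontal cell markers (1089.9 to 1156 against 1268 to 1371) and endothelial and pericyte markers (534 to 599 against 618 to 653) were lower in mKO among the non-RGCs and overlapped between genotypes in RGCs. Pigment epithelium markers were higher in mKO (49.2 to 74.6 against 26.3 to 34.1 in RGCs, 169.8 to 193 against 35.1 to 67.1 in non-RGCs), with Rpe65 at 0 in every WT library. The remaining lists overlapped between genotypes in both fractions. The part of these markers in the results below was not tested. The targeted gene Ezh2 had 1354, 1476 and 1443 normalized reads in mKO RGCs and 1189.9, 1206 and 1678 in WT RGCs, and was not lower in mKO in either fraction. Without WT RGC library C it was higher in mKO RGCs, by 0.25 on the log2 scale (SE 0.0492, limma adjusted p = 0.00419). Counts over the whole gene include exons outside the deletion, so they do not check the labels.

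The Irx genes were transcripts of the RGC fraction, with Irx5 as the exception, and the Dlx genes were higher among the non-RGCs. Levels are set across the fractions in RPM, because the deposited tables were scaled separately, and are described without a test. In WT libraries, mean Irx4 was 152-fold higher in RGCs than in non-RGCs, at 153 ± 18.3 against 1.01 ± 0.417 RPM (mean ± SD, n = 3 each). Irx2 (112 ± 17.1 against 2.44 ± 0.362) and Irx1 (36.6 ± 8.03 against 0.832 ± 0.262) were 45.8-fold and 44.0-fold higher. The 3 genes of the chromosome 13 cluster were thus nearly absent from the non-RGC libraries, where Irx4 was read 6 to 15 times and Irx1 6 to 12 times. The chromosome 8 cluster was less divided. Irx6 was 8.75-fold higher in WT RGCs, at 138 ± 10.1 against 15.8 ± 5.10, and Irx3 was 3.53-fold higher, at 67.6 ± 7.33 against 19.1 ± 9.01. Irx5 was 1.09-fold higher, at 137 ± 1.95 against 127 ± 3.21. In both genotypes every RGC library was above every non-RGC library for all 6 Irx genes, Irx5 included, a pattern shared by 22.5% of the 16517 genes tested. Dlx1 (5.71 ± 2.74 in WT RGCs against 15.4 ± 8.66 in WT non-RGCs) and Dlx2 (9.98 ± 2.91 against 19.6 ± 6.59) lay below in every RGC library of both genotypes, as did 24.9% of genes. RGCs that carry more Irx RNA per cell and a fraction that holds more RGCs cannot be told apart in bulk samples.

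**Figure D1:**
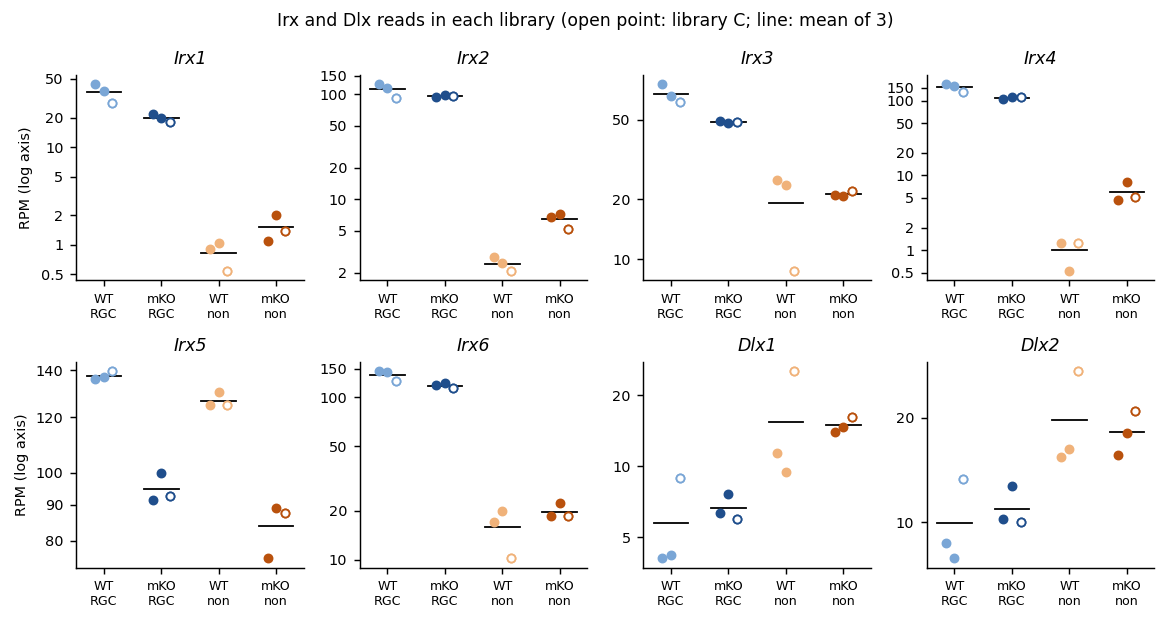
RPM of the 8 genes in each of the 12 libraries (vertical axis, logarithmic), with WT and mKO groups of both fractions side by side, points for libraries, open points for library C and lines for the mean of 3. Irx1, Irx2 and Irx4 sit at 0.525 to 8.07 in non-RGC libraries and at 18.0 to 168 in RGC libraries, and the open WT points of Dlx1 and Dlx2 lie above the filled ones in both fractions.

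In RPM per kilobase of exon, the order of the levels in WT RGCs was Irx4 (58.6 ± 7.01), Irx5 (44.0 ± 0.623), Irx6 (41.0 ± 3.00), Irx2 (34.1 ± 5.20), Irx3 (24.5 ± 2.65), Irx1 (14.0 ± 3.07), Dlx2 (3.50 ± 1.02) and Dlx1 (1.06 ± 0.507). Neighbours in this order did not overlap between libraries except Irx6 and Irx2. In WT non-RGCs, Irx5 led at 40.5 ± 1.03. It was followed by Irx3 (6.92 ± 3.26), Dlx2 (6.87 ± 2.31), Irx6 (4.69 ± 1.51) and Dlx1 (2.85 ± 1.61), each overlapping the next of these 4, and then by Irx2 (0.743 ± 0.110), Irx4 (0.386 ± 0.160) and Irx1 (0.317 ± 0.100), of which the last pair overlapped. In mKO RGCs, Irx4 was again highest at 42.1 ± 1.42, and Irx6 (35.1 ± 1.27) stood above Irx5 (30.3 ± 1.48).

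The question of the first comparison was whether these genes change in RGCs when Ezh2 is deleted. With the authors' size factors all 6 Irx genes were lower in every mKO RGC library than in any WT RGC library (5 with RPM, where Irx2 overlapped), and 5 of them fell in the test, by 0.35 to 0.98 on the log2 scale, while neither Dlx gene passed it. Calls are at an adjusted p under 0.05 in limma over 16085 genes, on log2(normalized reads + 1), where normalized reads are recovered reads divided by the size factor the authors used. In this comparison 21.2% of all genes were called lower and 16.3% higher, 28.2% of genes had all mKO libraries below all WT libraries and 24.8% had them above, and the median of all genes was 0.00 against -0.59 for the Irx genes. Of the genes called, 3405 were lower and 2622 higher, a split that became 2240 and 3846 with RPM scaling.

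Irx1 changed most. It had 248, 229.6 and 209.9 normalized reads in mKO RGC libraries A, B and C and 552, 474 and 349 in WT, and fell by 0.98 on the log2 scale (SE 0.172, limma adjusted p = 0.00509). The WT libraries spread widely, and the lowest of them was still above the highest mKO library. Irx4, the most abundant of the family in RGCs, had 1199, 1288 and 1299 in mKO and 2096, 2001 and 1637 in WT, a fall of 0.59 (SE 0.0977, limma adjusted p = 0.00395). Irx2, its cluster neighbour, had 1074, 1129 and 1128 in mKO and 1574, 1475 and 1148 in WT. WT library C of Irx2 was only just above the mKO libraries, and the log2 difference of -0.32 (SE 0.116) missed the threshold (limma adjusted p = 0.0661).

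On chromosome 8, Irx5 had 1038, 1146 and 1082 normalized reads in mKO and 1697, 1736 and 1727 in WT, where its libraries were the closest of the 3 genes. It fell by 0.66 on the log2 scale (SE 0.0561, limma adjusted p = 6.51e-04). The groups were separated by far more than the spread within them. Irx3, a TALE factor best known from neural tube and limb patterning, had 563, 550.5 and 570.3 in mKO and 946, 832 and 759.7 in WT, a fall of 0.59 (SE 0.0884, limma adjusted p = 0.00281). Irx6 had 1346, 1399.7 and 1325 in mKO and 1817, 1805 and 1567 in WT, a fall of 0.35 (SE 0.0715, limma adjusted p = 0.00921). Of the 6 genes, all but Irx5 were lowest in WT library C among the WT libraries, the library with the most progenitor markers. Without that library all 6 Irx genes were called lower, Irx2 among them with a log2 difference of -0.46 (limma adjusted p = 2.24e-04).

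The exons of the 8 genes are rich in G and C, from 54.2% (Dlx1) to 62.3% (Irx3), against a median of 49.5% over the genes tested, and in these libraries fold change moved with GC content across the whole transcriptome. Of the 3649 genes with a GC content in the range of the 8, 85.8% lay below 0 in RGCs, with a median log2 difference of -0.38, and 46.0% were called lower. The quartiles of these genes were -0.54 and -0.17, so that Irx1, Irx3, Irx4 and Irx5 lay below the lower quartile and Irx2 and Irx6 between the quartiles. When each library's trend with GC content was removed before the fit, Irx5 remained the only member called, with a fall of 0.20 (SE 0.0504, limma adjusted p = 0.0473). Irx1 was at -0.39 (95% interval -0.82 to 0.04), and Irx2 (0.02), Irx3 (0.05), Irx4 (-0.02) and Irx6 (0.08) lay near 0. With the trend with reads per base removed as well, no member was called in RGCs. RGC markers moved in the same direction as the Irx genes in this fraction. The 12 markers summed to 2173 to 2236 RPM in mKO and 2692 to 2880.3 in WT RGCs, 10 of the 12 were called lower and none was called higher, and none was at 0. The direction was not particular to RGC markers. Their median log2 difference was -0.47, against -0.52 for photoreceptor, -0.46 for progenitor and -0.31 for amacrine and horizontal markers. In these other lists 4 of 8, 4 of 10 and 4 of 10 genes were called lower and none higher. Medians above 0 were those of bipolar (0.12), pigment epithelium (1.02) and forebrain interneuron markers (0.03). The part of the markers in the fall of the Irx genes was not tested.

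**Figure D2:**
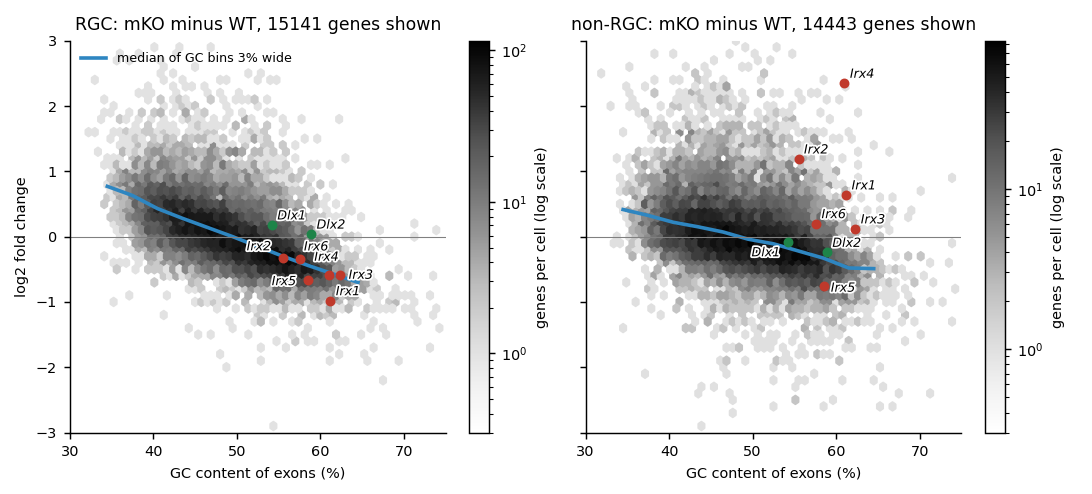
Log2 fold change of mKO against WT (vertical axis) by GC content of the exons (horizontal axis, percent) in RGCs (left) and non-RGCs (right). Shaded cells on a logarithmic colour scale hold the tested genes with a known GC content, 15159 and 14473. A line gives the median of GC bins, and points are red (Irx) and green (Dlx). In RGCs the red points lie from -0.98 to -0.32, in non-RGCs Irx4 (2.35) and Irx2 (1.19) stand above the line, and 18 and 30 of these genes lie outside the axes.

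Among the non-RGCs the same comparison gave another picture. Irx4 and Irx2 rose, Irx5 fell, and the other 5 genes did not pass the test. Of 15326 genes tested, 4.18% were called higher (641) and 6.43% lower (985), or 1329 and 447 with RPM scaling, while 17.5% had all mKO libraries above all WT libraries and 19.2% had them below. Of the 8 genes, 2 were above, 1 was below and 5 overlapped (3, 1 and 4 with RPM, where Irx1 did not overlap), and their median was 0.16 against -0.03 for all genes.

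Irx4 had 47.0, 79.6 and 52.2 normalized reads in mKO non-RGC libraries A, B and C and 13.5, 5.81 and 14.6 in WT. It rose by 2.35 on the log2 scale (SE 0.407, 95% interval 1.44 to 3.26, limma adjusted p = 0.0114). The groups did not overlap, although they rest on 37 to 83 recovered reads in mKO and 6 to 15 in WT. Irx2 had 67.0, 71.9 and 52.2 in mKO and 30.7, 27.1 and 24.0 in WT, a rise of 1.19 (SE 0.274, 95% interval 0.58 to 1.80, limma adjusted p = 0.0277), also without overlap. Irx1, the other member of the chromosome 13 cluster, had 10.8, 20.1 and 14.1 in mKO and 9.92, 11.6 and 6.26 in WT, and its log2 difference of 0.64 (SE 0.419) did not pass (limma adjusted p = 0.333). With the GC trend removed, Irx4 (2.83, limma adjusted p = 0.0214) and Irx2 (1.45, limma adjusted p = 0.0456) were still called higher. Irx2 lost its call in 4 of 6 fits that each left out 1 library, without mKO library A (1.15, limma adjusted p = 0.0725), mKO library B (1.10, 0.145), WT library A (1.28, 0.0521) or WT library B (1.19, 0.0865), and Irx4 in 1 of 6, without mKO library B (2.13, limma adjusted p = 0.0710). Without that library no member was called, and the genes called in all dropped to 48 higher and 93 lower from 641 and 985.

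Transcripts of RGCs as a whole were higher in the mKO non-RGC libraries. The 12 RGC markers summed to 616 to 819 RPM there and to 516 to 543 in WT non-RGCs, 8 of the 12 were called higher, none was called lower, and none was at 0. Thy1, whose protein is the antigen used to capture RGCs, was at 6.78 to 9.24 RPM in mKO and 0.175 to 0.811 in WT non-RGCs. Pou4f2, an RGC transcription factor, was at 12.9 to 20.2 against 3.24 to 6.22. As a share of the level in the RGC libraries of the same genotype, mean Irx4 in non-RGCs was 0.659% in WT and 5.47% in mKO, Irx2 was 2.18% and 6.64%, and Irx1 was 2.27% and 7.57%. For comparison, Thy1 was 0.246% and 6.48%, Pou4f1 1.98% and 8.21%, Pou4f2 2.05% and 9.45%, and Slc17a6, the vesicular glutamate transporter of RGCs, 2.19% and 5.91%. Rbpms, at 6.50% and 16.8%, and Sncg, at 8.54% and 41.6%, lay higher, so that the 6 RGC genes ran from 5.91% to 41.6% in mKO. Pigment epithelium markers were also higher in the mKO non-RGCs, by the sums given above, and 4 of the 6 tested were called higher. The part of RGC and pigment epithelium transcripts in the rise of Irx4 and Irx2 was not tested.

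**Figure D3:**
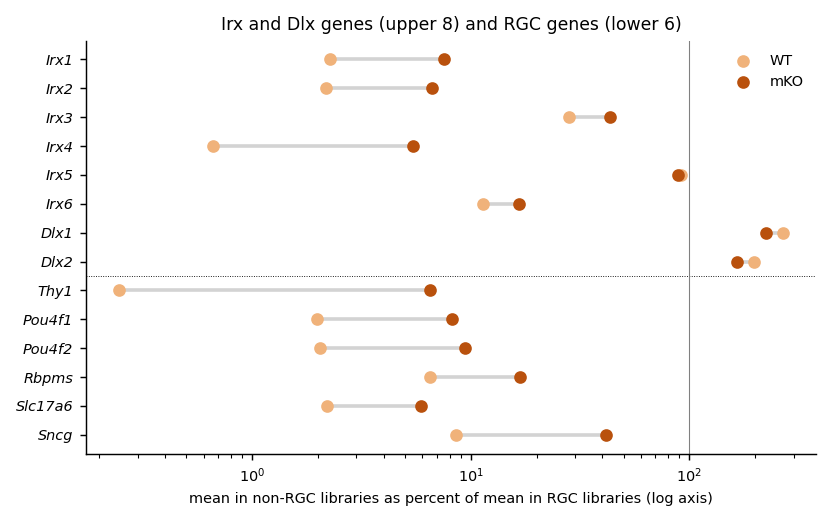
Mean level in the 3 non-RGC libraries as a percent of the mean in the 3 RGC libraries of the same genotype (horizontal axis, logarithmic), for the 8 genes and, under the dotted line, 6 RGC genes, with light points for WT and dark points for mKO. Irx1, Irx2 and Irx4 move from 0.659% to 2.27% in WT to 5.47% to 7.57% in mKO, Irx5 stays near 100%, and both Dlx genes lie above it.

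Irx5 was the member that changed in the same direction in both fractions. In non-RGCs it had 746, 880.4 and 883 normalized reads in mKO and 1369, 1441 and 1442 in WT, and fell by 0.76 on the log2 scale (SE 0.123, limma adjusted p = 0.00948). No mKO library reached the lowest WT library, and the call was lost only without mKO library B (-0.80, limma adjusted p = 0.0575) among the 6 fits that left out 1 library. In its GC range 75.4% of 3541 genes lay below 0 and 16.0% were called lower, and with the GC trend removed Irx5 was at -0.39 (limma adjusted p = 0.0876) and was not called. Irx3 had 207, 204 and 222 in mKO and 273, 262 and 101 in WT, with a log2 difference of 0.12 (SE 0.342). Irx6 had 183, 219.6 and 186 in mKO and 188, 223 and 118 in WT, with a difference of 0.20 (SE 0.249). Neither passed (limma adjusted p = 0.840 and 0.620). For both, WT library C was well below the other libraries, and without it the differences turned to -0.34 for Irx3 and -0.06 for Irx6.

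**Figure D4:**
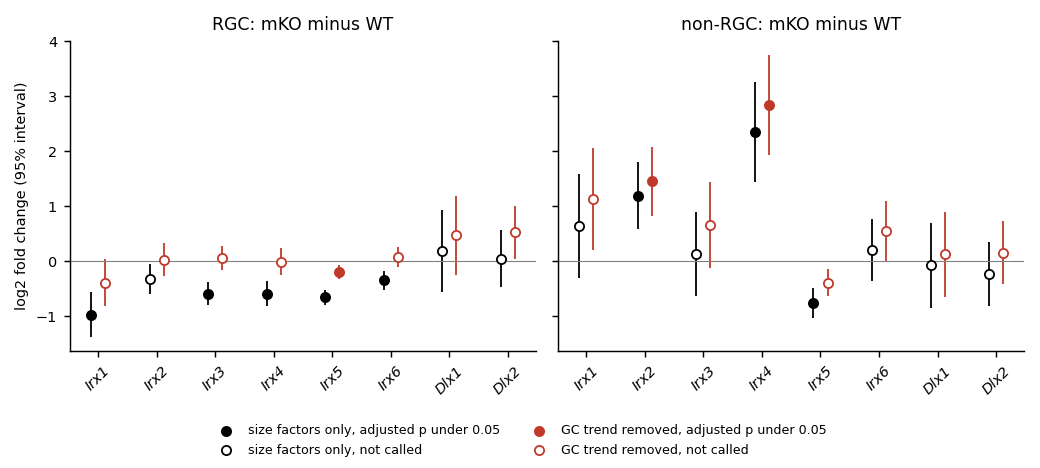
Log2 fold change of mKO against WT with its 95% interval (vertical axis) for each gene in RGCs (left) and non-RGCs (right), in black with the authors' size factors and in red with the GC trend of each library removed; filled points passed an adjusted p of 0.05 in limma. Removing the trend moves the Irx genes in RGCs towards 0 and leaves Irx2 and Irx4 called higher in non-RGCs.

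The difference of the mKO effect between the fractions was tested directly, as the log2 change in RGCs minus that in non-RGCs in 1 limma fit over all 12 libraries. Irx4 (-2.95, SE 0.399, limma adjusted p = 0.00861) and Irx2 (-1.51, SE 0.236, limma adjusted p = 0.0287) passed. They were among 16 genes called of 16517 tested, or 0.0969%, and all 16 were lower in RGCs than in non-RGCs. Irx1 had a difference of -1.61 that missed the threshold (SE 0.398, limma adjusted p = 0.283), and for Irx5 the difference was 0.10 with a 95% interval of -0.17 to 0.37. Those of Irx3 (-0.71), Irx6 (-0.55), Dlx1 (0.26) and Dlx2 (0.28) had adjusted p-values in limma from 0.524 to 0.865. With the GC trend removed, Irx4 was still called and Irx2 was not (-1.43, limma adjusted p = 0.0647). With the trend with reads per base removed as well, neither Irx4 (-2.56) nor Irx2 (-1.26) was called (limma adjusted p = 0.0581 for both). In the 12 fits that each left out 1 library, Irx4 lost its call in 1, without mKO RGC library A (-2.91, limma adjusted p = 0.0522). Irx2 lost its call in 7 of the 12, without any 1 of mKO RGC libraries A, B and C, WT RGC libraries A and B, mKO non-RGC library B and WT non-RGC library B (-1.52 to -1.42, limma adjusted p up to 0.156), and also with voom, a weighted form of limma (-1.55, adjusted p = 0.138). Irx1 was called without mKO non-RGC library A (-1.81, limma adjusted p = 0.0484).

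Dlx1 and Dlx2 did not pass the test in either fraction, and in each fraction library C of the WT group had the highest values. In RGCs, Dlx1 had 71.5, 87.6 and 69.6 normalized reads in mKO and 50.7, 53.2 and 109.7 in WT, and Dlx2 had 116, 146 and 117 in mKO and 109, 99.9 and 165 in WT. The log2 differences were 0.18 for Dlx1 (95% interval -0.56 to 0.92, limma adjusted p = 0.672) and 0.04 for Dlx2 (95% interval -0.47 to 0.56, limma adjusted p = 0.891). For both genes WT library C was the highest of the 6 RGC libraries and the other WT libraries were the lowest pair. Without WT library C, Dlx1 was called higher in mKO RGCs, at 0.54 (limma adjusted p = 0.0434), and Dlx2 was at 0.26 (limma adjusted p = 0.197).

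In non-RGCs, Dlx1 had 139, 144 and 162 normalized reads in mKO and 125, 105 and 293 in WT, and Dlx2 had 154, 178 and 210.4 in mKO and 169, 180 and 315 in WT. In this fraction too, library C of the WT group was the highest for both genes. The log2 differences were -0.08 for Dlx1 (95% interval -0.85 to 0.69, limma adjusted p = 0.899) and -0.24 for Dlx2 (95% interval -0.82 to 0.34, limma adjusted p = 0.564), and without WT library C they were 0.37 (limma adjusted p = 0.210) and 0.04 (limma adjusted p = 0.899). With RPM in place of the size factors, the difference of Dlx1 was 0.09. The 10 progenitor markers, though not only these, were highest among the WT libraries where the Dlx genes were highest. They summed to 2005 RPM in WT RGC library C against 1196 and 1249 in the other WT RGC libraries and 1224 to 1336 in mKO RGCs, and to 2969.7 in WT non-RGC library C against 2520 and 2533. Bipolar markers had the same order, at 321 RPM in WT RGC library C against 237 and 240.1, and 496 in WT non-RGC library C against 358 and 370.1. Photoreceptor markers had it in WT RGCs (853 against 599.8 and 596) but were lowest in library C of WT non-RGCs (1189.7 against 1209 and 1333). None of the 10 progenitor markers was at 0 in any group, and the part of any list in the spread of the Dlx genes was not tested.

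**Figure D5:**
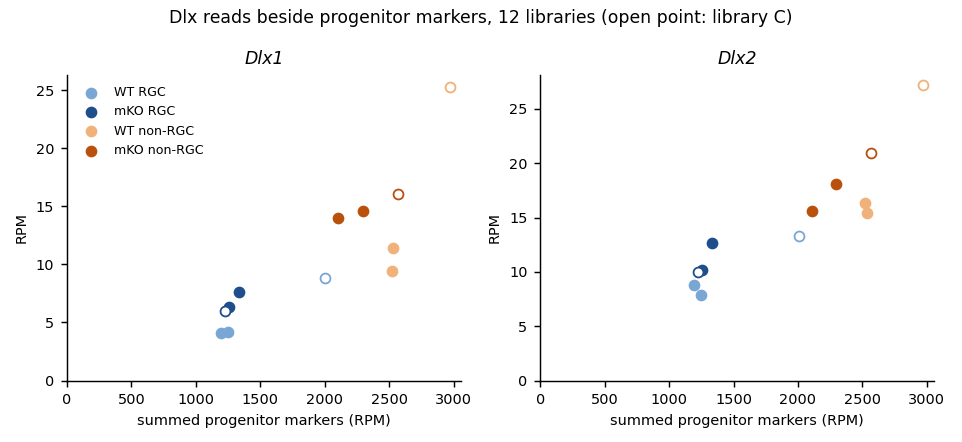
RPM of Dlx1 and Dlx2 (vertical axes) beside the summed RPM of 10 progenitor markers (horizontal axes) in the 12 libraries, coloured by group, with open points for library C. In each fraction the open WT point has the most Dlx reads and the most progenitor reads of its group, at 8.87 and 25.3 for Dlx1. Bipolar markers, not drawn, were also highest in library C of both WT groups.

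Annotated neighbours within 50 kb were also read. Gm20554, a long noncoding RNA whose annotation starts 256 bp from Irx2, had 19, 28 and 31 recovered reads in mKO RGC libraries and 12, 4 and 6 in WT, and rose by 1.55 on the log2 scale of normalized reads (SE 0.414, limma adjusted p = 0.0241) where Irx2 was at -0.32. In non-RGCs it had 0 or 1 read per library and was not tested. Gm21817, a long noncoding RNA 18375 bp from Irx5, had 14, 16 and 29 reads in mKO RGCs and 2, 5 and 3 in WT, and rose by 2.02 (SE 0.440, limma adjusted p = 0.0113). In non-RGCs, Gm21817 was at 1.08 and did not pass (limma adjusted p = 0.167). With the GC trend removed, both were still called in RGCs, at 1.77 for Gm20554 and 1.82 for Gm21817. The trend with reads per base was not removed for these neighbours, which have few reads. The median log2 difference of all genes in RGCs was 0.13 with no filter on low values and -0.06 with a mean of at least 50. Crnde, which the tables list under an older name and which lies 1505 bp from Irx5, did not pass in RGCs (-0.09, limma adjusted p = 0.592) or in non-RGCs (0.36, limma adjusted p = 0.350). Dlx1as, on the opposite strand of Dlx1, had 13, 17 and 22 reads in mKO RGCs and 8, 6 and 10 in WT, without passing (0.79, limma adjusted p = 0.118). The library kit does not mark strand, so reads of Dlx1 and Dlx1as cannot be told apart where they overlap, nor those of Irx3 and Irx6 and the antisense genes annotated across them.

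Other genes of the families and pathways are given by their counts, to be read against the 21.2% of all genes called lower and 16.3% called higher in RGCs, 6.43% and 4.18% in non-RGCs, and medians of 0.00 and -0.03. Of 12 other TALE homeobox genes, which include the Meis and Pbx partners of homeodomain proteins, Meis3 (-0.36) and Pbx2 (-0.29) fell in RGCs and Pknox1 (0.27) rose, with a median of -0.08, and none was called in non-RGCs. Of 6 other Dlx genes and transcripts, 2 were tested. Among these Dlx3 fell in non-RGCs, by 0.73 on the log2 scale (SE 0.178, limma adjusted p = 0.0327), from 220.2, 230.3 and 249 normalized reads in WT to 140.2, 152 and 129 in mKO. In RGCs it had a difference of -0.58 and did not pass (limma adjusted p = 0.0862).

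Of 7 genes reported downstream of DLX1 and DLX2, 2 were called lower in RGCs, a share near that of all genes, and none higher, with a median of -0.22 against 0.00 for all genes. Pou4f2, which DLX proteins activate, was at -0.44, and Crx, a photoreceptor regulator that they repress, at -0.60. In non-RGCs, Pou4f2 rose (1.72, limma adjusted p = 0.0116), and Crx (-0.57) and the semaphorin receptor Nrp2 (-1.13) fell, with a median of -0.47. Ntrk2, Gad1, Gad2 and Olig2 passed in neither fraction. Of 12 other homeobox genes of RGC differentiation, 5 were called lower in RGCs, among them Pou4f1 (-0.63) and Barhl2 (-0.59), and Onecut2 was called higher (1.49). In non-RGCs, Pou4f1 (1.54), Pou4f2 (1.72) and Pou4f3 (3.02) rose and Onecut1 (-1.60) fell. With the authors' size factors, the POU factors, which mark differentiated RGCs, had the signs of Irx2 and Irx4 in both fractions. In RGCs, neither Pou4f3 (-0.24, limma adjusted p = 0.132) nor Irx2 passed. Isl1 (-0.04 in RGCs, 0.28 in non-RGCs) and Isl2 (-0.38, 0.20) shared the signs of Irx2 and Irx4, and the rest of the list did not. Barhl2 (-0.59, -0.29), Six3 (-0.58, -0.50), Onecut1 (-0.61, -1.60) and Lhx1 (-0.08, -0.62) were below 0 in both fractions. Onecut2 (1.49, 0.64), Lhx9 (0.29, 0.14) and Six6 (0.13, 0.01) were above 0 in both. These are signs only, and values such as those of Isl1 and Lhx1 in RGCs did not pass (limma adjusted p = 0.728 and 0.761). With the GC trend removed, Irx2 (0.02) and Irx4 (-0.02) themselves lay near 0 in RGCs.

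Across the 12 libraries, the genes whose log2(RPM + 1) was most like that of each member were sought among 16516 genes. The 12 points fall into the 2 fractions, which differ in composition, so a high r mostly says that a gene divides between the fractions in the same way. For Irx4 these genes were Pou4f2 (r = 0.998), Rgs4 and Rbpms (both 0.997), for Irx2 Fblim1, Slc17a6 and BC030500 (all 0.998), and for Irx6 Vsnl1, Galnt9 and Golga7b (all 0.998). For Irx1 they were Shisa5 (0.998), Cend1 (0.997) and Eml2 (0.996), and for Irx3 Hid1 (0.990), Dnajb2 (0.985) and St6galnac4 (0.981). Irx5 stood apart, with Irf2bpl (0.985), Ppp1r9b and Ubqln2 (both 0.983) as its nearest genes and r from 0.11 to 0.29 with the other Irx genes, whose r among themselves ran from 0.90 to 0.99. Dlx1 was nearest to Skida1 (0.991), Col9a1 (0.987) and Klf9 (0.982). Dlx2 was nearest to Dlx1 (0.978), followed by Prkrir (0.977) and Hist1h3a (0.975).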

How the data were processed

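RNA was measured by single-end sequencing of poly-A libraries made with a kit that does not mark strand. Per the labels and methods, the authors aligned reads to mm10 with STAR 2.3.1z4, counted them per gene with featureCounts and scaled them with DESeq, after removing duplicate reads. Each deposited signal value is the mean, taken by the authors over the 3 libraries of a group, of a gene's count after division by the library's size factor; the deposited fold changes and p-values of the authors' own comparisons were not used. Columns of per-sample values left unused numbered 0.

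Whole reads of each library were recovered from the deposited means. Exactly 1 combination of 3 whole numbers matched for every gene with reads, except 5 genes of the WT non-RGCs, none of them named here, and for 0 of 1000 shifted control values in each group. Groups came from the labels, and the recovered libraries carry no replicate number. Reads divided by the deposited size factors were fitted with limma 3.58.1 (mean-variance trend, R 4.3.3) on log2(value + 1), keeping genes whose mean reached 10 in a group, with Benjamini-Hochberg adjustment over all genes; on this scale changes of genes with few reads are understated. The steps were also run on simulated libraries with known changes. These had the same spread set for every gene, so that run does not give the error rate in the libraries used here. With 3 libraries against 3, an exact permutation test cannot go below p = 0.1, so none was run. Libraries held 7139633 to 13014004 reads on genes.

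GENCODE M21 gave positions, exon lengths and GC content. Alternatives were a pseudocount of 0.5, no filter or a mean of at least 50, RPM scaling, upper quartile scaling, voom, removal of the GC trend (lowess, span 0.3) or of GC and reads per base trends (300 nearest genes), and leaving out each library. The members and lists were chosen with earlier results of these data known. Named genes were the 8 members, annotated genes within 50 kb of them, list genes called in either fraction, and the 3 genes with the most similar pattern for each member; list genes that passed nowhere and the RGC genes of the fraction comparison were named after their values were seen.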

Additional observations from a re-analysis of the deposited data

Results flagged for a closer look

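Irx4 and Irx2 were singled out because the effect of mKO differed between the fractions by a test of the difference itself. The log2 change in RGCs minus that in non-RGCs was -2.95 for Irx4 (limma adjusted p = 0.00861) and -1.51 for Irx2 (limma adjusted p = 0.0287), and with the authors' size factors the 3 mKO libraries lay below the 3 WT libraries in RGCs and above them in non-RGCs. With RPM, Irx2 overlapped between genotypes in RGCs, and its call in the difference was lost in 7 of 12 fits that each left out 1 library. Irx4 lost its call in 1 of these 12 fits (-2.91, limma adjusted p = 0.0522), and without WT RGC library A held it only at a limma adjusted p of 0.0496. With the GC trend removed, neither gene was lower in RGCs beyond its error (Irx4 -0.02, limma adjusted p = 0.930, Irx2 0.02, limma adjusted p = 0.935). In WT non-RGCs, Irx4 rests on 6 to 15 reads per library. With GC and reads per base trends removed, the difference was called for neither gene (limma adjusted p = 0.0581 for both). Groups of 3 libraries were not searched by a rule for single outlying libraries, and library C of the WT groups was singled out after its values were seen.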

How the results depend on the processing

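The recovered reads give 3 libraries per group, and in non-RGCs Irx1, Irx2 and Irx4 were read under 100 times in every library; a change smaller than a member's interval was not detectable at this depth. Whether the 3 libraries differ as animals or as preparations was not tested. No paired analysis was possible because the recovered libraries carry no replicate number.

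With the GC trend removed, genes called in RGCs numbered 1349 lower and 746 higher and members called lower dropped from 5 to 1, non-RGC genes numbered 85 lower and 126 higher with 0 members lower, and the difference called 1 member. With GC and reads per base trends removed, these were 622 and 306 with 0 members, 122 and 119 with 0 members lower, and 3 genes with 0 members. RPM scaling gave 2240 lower and 3846 higher in RGCs, 447 and 1329 in non-RGCs and 26 genes in the difference, upper quartile scaling gave 531 and 990 in non-RGCs, voom called 1 member in the difference, and no filter on low values gave 1 gene higher in it. RPM scaling moved the median of all genes by 0.12 in RGCs and 0.17 in non-RGCs, and upper quartile scaling by 0.13 in non-RGCs.

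Leaving out each library, RGC genes ranged from 2309 to 4454 lower and 1427 to 3730 higher, with 5 to 6 members lower and 0 to 1 higher. Non-RGC genes ranged from 93 to 1130 lower and 48 to 724 higher, with 0 to 1 members lower and 0 to 2 higher, and the difference from 7 to 47 genes lower and 0 to 190 higher, with 0 to 3 members lower. Library C of the WT group compared was also left out, a choice made after seeing the data. Without it, 2 members had every mKO RGC library above WT, and in non-RGCs 2 lay below and 3 above.

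Of 383 values for single members, 335 kept their direction and side of the threshold, 29 lost the call, 3 gained it and 20 changed sign, 4 of them among the 29, and except where the settings themselves differ only in the libraries used the cause was not tested. Signs turned in RGCs with the GC trend removed for Irx2 (0.02), Irx3 (0.05) and Irx6 (0.08), and with both trends removed for Irx2 (0.10), Irx4 (0.04) and Irx6 (0.16). In non-RGCs, Dlx1 turned with RPM scaling (0.09), upper quartile scaling (0.05) and the GC trend removed (0.13), and Dlx2 with the GC trend removed (0.15) and both trends removed (0.05). Leaving out libraries, ranges crossed 0 in RGCs for Dlx1 (-0.01 to 0.54) and Dlx2 (-0.10 to 0.26), in non-RGCs for Irx3 (-0.34 to 0.37), Irx6 (-0.06 to 0.39), Dlx1 (-0.37 to 0.37) and Dlx2 (-0.41 to 0.04), and in the difference for Dlx1 (-0.19 to 0.62). The levels in non-RGCs as a percent of RGCs moved beyond their spread for 2 of 16 values when scaled by the median of ratios over the 12 libraries.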
